A study of Rattus norvegicus with 4 samples.

Results

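The genes described here are 53 genes of DNA replication and nucleotide supply, picked by gene name and set in 7 subgroups from origin licensing to replication-coupled chromatin assembly. Of these, 52 were among the 15172 genes of the table and all 52 were deep enough to be among the 13953 genes tested. Dna2, a nuclease and helicase of Okazaki fragment processing, is not analysed here. RNA was sequenced from INS-1 832/13 cells, a rat insulinoma line that secretes insulin, 36 h after transfection with a pool of siRNAs against Tbk1 (siTbk1, 2 samples) or with a non-targeting siRNA (siScramble, the control, 2 samples). Both groups are the same line and received siRNA with the same reagent, and the siRNAs of the pool are not told apart. Untransfected cells are not analysed here. The samples carry replicate numbers 2 and 3 in each group, and nothing in the labels says whether they are separate cultures, so the p-values measure only the spread between these samples.

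Before S phase, the origin recognition complex, Cdc6 and Cdt1 load the ring-shaped Mcm2 to Mcm7 helicase core onto DNA, and geminin holds Cdt1 back once origins have fired. In S phase, Cdc45 and the GINS proteins join the ring to form the active CMG helicase, primase and DNA polymerases α, δ and ε copy the strands, the clamp PCNA is loaded by replication factor C, and Fen1 and Lig1 seal Okazaki fragments. Ribonucleotide reductase and thymidylate synthase supply deoxynucleotides. Many of these genes are known targets of E2F transcription factors, and adult β-cells seldom enter S phase, whereas an insulinoma line cycles in culture.

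Levels are given as CPM, the count of a gene per 1000000 counts of its library after scaling with TMM factors, and each pair of values is replicate 2 followed by replicate 3. The total estimated count was 38428926 to 47759013 per library, and a member held between 268 (Pole2) and 31484 (Rrm1) counts in a library. Tbk1, the targeted gene, had 53.7 and 52.5 CPM in siScramble replicates 2 and 3 and 11.8 and 13.3 CPM in siTbk1 replicates 2 and 3, a log2 fold change of −2.08 (SE 0.0757). All 10 β-cell markers examined were expressed, and 3 of them rose, 5 fell and 2 did not pass the test. Among all genes tested, 24.4% were higher and 24.8% lower by that test. The summed levels of these markers were 19128 and 19996 CPM in siScramble and 16482 and 14849 CPM in siTbk1 libraries. Ins1 weighs most in these sums, at 10384 and 11092 CPM in siScramble and 7520 and 6244 CPM in siTbk1 libraries. Of 12 markers of other pancreatic cells only Gcg, Krt7 and Sox9 were tested, Gcg, the glucagon gene, being at 1389 and 1313 CPM in siScramble and 815 and 878 CPM in siTbk1 libraries. Gcg (log2 fold change −0.68) and the duct marker Krt7 (−0.31) fell, and Sox9 did not pass. Of 7 stromal, immune and endothelial markers, Pdgfra and Cd68 were tested, with summed levels of 6.996 and 5.68 CPM in siScramble and 9.29 and 8.72 CPM in siTbk1 libraries, and of these Pdgfra rose (log2 fold change 0.53). The part of these shifts in the results was not tested. The members together held 0.519% and 0.508% of the unscaled counts in siScramble and 0.520% and 0.522% in siTbk1 libraries. After TMM scaling their summed level was 5128 and 4975 CPM in siScramble and 5277 and 5314 CPM in siTbk1 libraries. Members with high levels, such as Rrm1, weigh most in these sums.

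The replication genes did not move as a block. At an adjusted p under 0.05 (edgeR's quasi-likelihood test, Benjamini-Hochberg adjustment over all 13953 genes tested), 19 of the 52 members rose in siTbk1-treated cells, 15 fell and 18 did not pass. Of all genes tested, 24.4% were higher and 24.8% lower by the same test, against 36.5% and 28.8% of the members. The members had a median level of 61.95 CPM, all genes tested 22.32 CPM, and a small change passes the test more readily at a high level. The shares of all genes tested, here and beside each subgroup, are not matched for level. The part of level in these shares was not tested. With the added limit of a 1.5-fold change, which is 0.585 on the log2 scale, 3 members were called higher (Atad2, Prim2 and Rfc4) and 1 lower (Cdt1), where 4.81% of all genes tested were called higher and 6.18% lower. Both siTbk1 libraries lay above both siScramble libraries for 26 members and below them for 19, and 7 members overlapped, beside 38.7% above and 37.9% below among all genes tested. Groups that did not overlap were thus common, and these shares apply wherever overlap is mentioned below. The members had a median log2 fold change of 0.069, and all genes tested 0.0071. Most changes were small, since 36 of the 52 members (69.2%) lay within 0.3 of 0 on the log2 scale, against 57.9% of all genes tested. The estimated counts of 18 members are not all whole numbers, as happens where an estimate shares reads among genes. The largest distance from a whole number was 0.01 for Cdc6, Pola2, Pold2 and Tk1, 0.02 for Orc5 and Prim2, and 0.06 for Uhrf1. It was between 0.16 and 0.47 for Mcm4, Mcm5, Pola1, Rfc4, Rfc5, Rpa1, Rpa3, Lig1, Rrm1, Rrm2 and Dut, whose values are less certain where a similar gene could take some of their reads. On the rn6 build of the table, the 4 members past the fold limit are listed at chr7:97984862-98026053 (Atad2), chr9:38536920-38745100 (Prim2), chr11:81358592-81373044 (Rfc4) and chr19:55381565-55386512 (Cdt1). The standard error of a member was 0.0501 to 0.116, so that its 95% interval reached between 0.109 and 0.253 to either side. In RNA from whole cultures, a change in the share of cells in S phase and a change in the RNA of a gene per cell cannot be told apart.

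**Figure D1:**
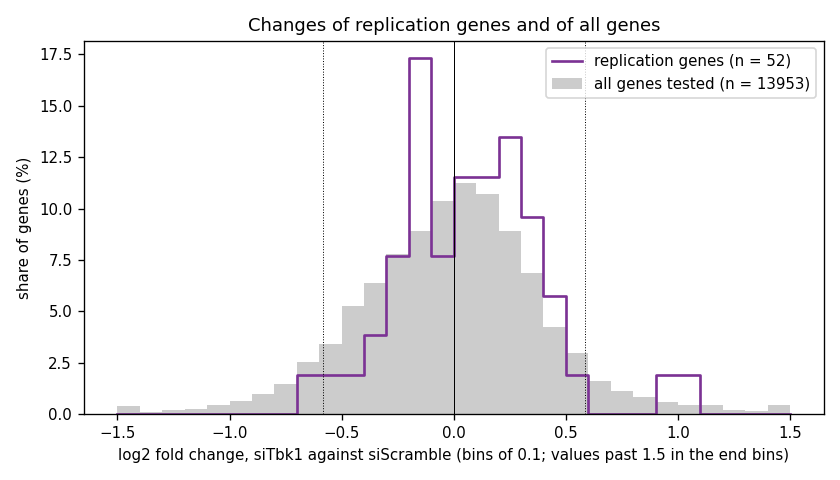
Share of genes (%) in bins of 0.1 of the log2 fold change, siTbk1 against siScramble, for all 13953 genes tested (grey bars) and for the 52 replication genes (purple line), with dotted lines at the 1.5-fold limits. Of the replication genes 36 lie within 0.3 of 0, and only Atad2, Prim2 and Rfc4 pass the upper limit and Cdt1 the lower one.

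Leaving out each library in turn kept 20 of the 34 members past the threshold in every fit, 12 higher and 8 lower. Without siScramble replicate 3, 13 members no longer passed and the counts were 13 higher and 9 lower. Without siTbk1 replicate 3, 9 members no longer passed and the counts were 16 higher and 9 lower. The members that no longer passed in either of these fits were Orc6, Mcm3, Mcm6, Mcm7, Gins4, Pcna, Rpa1, Lig1, Rrm1, Tk1, Dtl, Cdca7, Chaf1a and Chaf1b. Without siScramble replicate 2 Mcm6, Mcm7 and Chaf1a did not pass, and without siTbk1 replicate 2 Orc6, Mcm7, Rpa1, Lig1, Rrm1, Dtl and Cdca7 did not. With all 4 libraries, scaling by library size alone took Orc6, Gins4, Pcna and Cdca7 out of the calls, DESeq2 took out Cdca7, Chaf1a and Chaf1b, and upper quartile scaling took out Mcm7. For the 14 members named here, a rise or fall in the text refers to the fit of all 4 libraries.

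**Figure D2:**
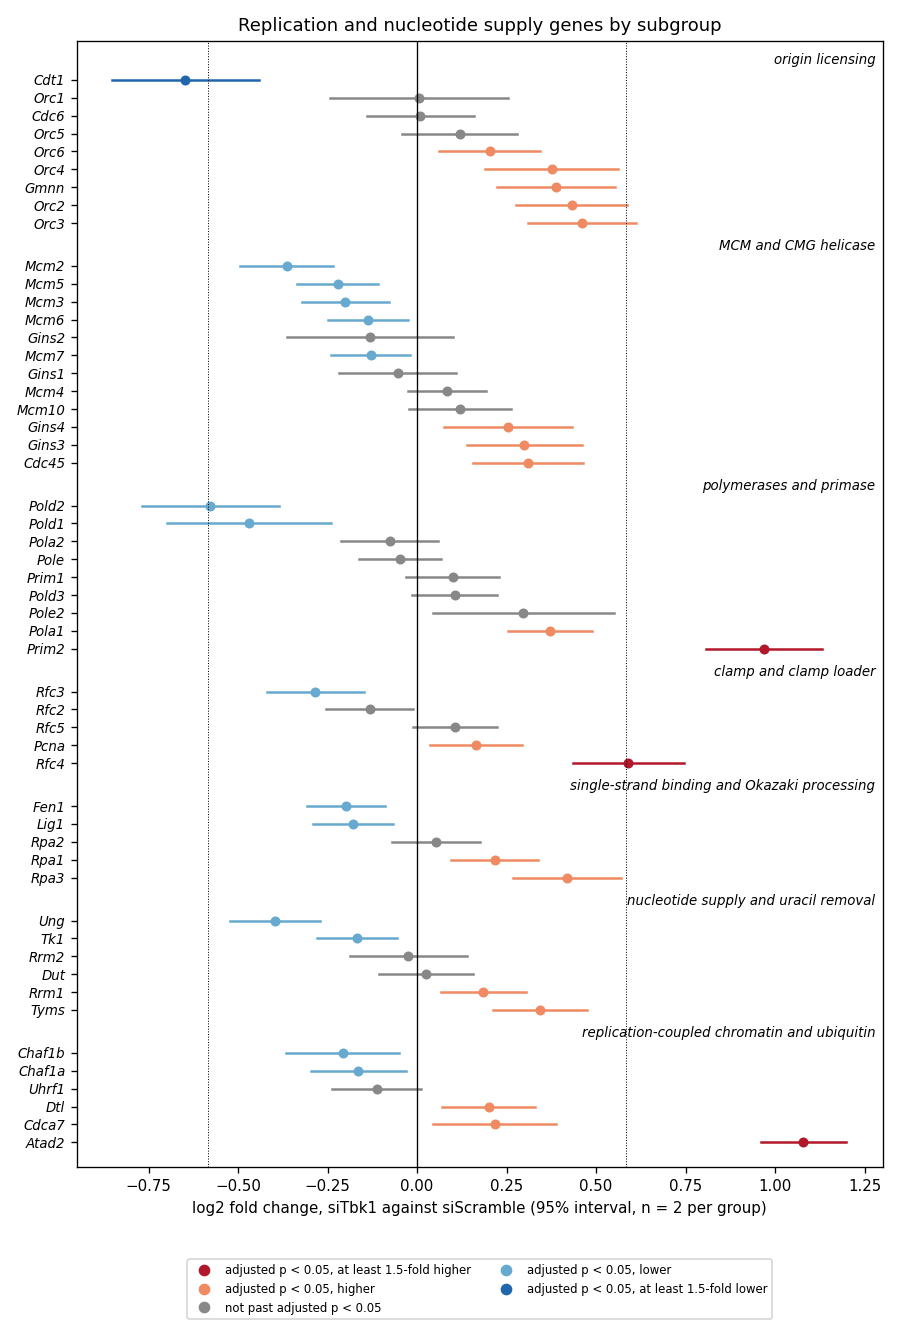
Log2 fold change of each of the 52 replication genes, siTbk1 against siScramble (2 samples per group), with its 95% interval, grouped by role and coloured by the test. Orc1 (0.0059) sits at 0 and Orc2 to Orc6 to its right, 5 of the 6 genes Mcm2 to Mcm7 sit to the left, and Atad2 (1.08), Prim2 (0.97) and Cdt1 (−0.65) lie farthest from 0.

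The promoters are shown as a description, and the part of their letters in the changes was not tested. RefSeq promoters of the GRCr8 build, of which the 250 bases before the annotated start were searched, were found for 45 of the 53 members by symbol. The E2F-type motifs TTTCCCGC, TTTCGCGC, TTTGCCGC and TTTGGCGC were searched on both strands, and where 2 of them overlapped on opposite strands both were counted. At least 1 was present in 14 of the 45 promoters (31.1%), in 3.41% of the promoters of genes tested and in 1.81% of all 27457 promoters. Of the members that rose 6 of 15 promoters held a match, of those that fell 5 of 15, and of those that did not pass 2 of 14. The matches were uneven between complexes. A match was in 4 of 5 promoters of Mcm2 to Mcm7, 6 of 10 of the helicase subgroup and 0 of 5 of the clamp subgroup. The promoter of Atad2 was not among those matched, and none of these letters was found in the windows of Prim2, Rfc4 and Cdt1. The CCAAT box (CCAAT, both strands) was in 24 of the 45 member promoters (53.3%), 9 of 15 for genes that rose and 9 of 15 for genes that fell, against 35.5% for genes tested. A match is a description of these letters and not a binding site.

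Stretches of 60 bases around a match follow, 5′ to 3′ on the strand of the gene, with the E2F-type letters in capitals. In the first 4 genes, which fell, the windows are chr4:122918095-122918154 for Mcm2, chr13:42404454-42404513 for Mcm6, chr12:22163197-22163256 for Mcm7 and chr12:48154046-48154105 for Ung, all on the minus strand.
Mcm2: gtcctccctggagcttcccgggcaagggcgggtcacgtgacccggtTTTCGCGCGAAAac
Mcm6: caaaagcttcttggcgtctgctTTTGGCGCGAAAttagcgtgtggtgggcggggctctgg
Mcm7: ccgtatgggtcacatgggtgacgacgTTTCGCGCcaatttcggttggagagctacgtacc
Ung: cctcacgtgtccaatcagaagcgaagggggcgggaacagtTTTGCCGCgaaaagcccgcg
In the next 4 genes, which rose, the windows are chr5:53977856-53977915 for Orc3, chr19:9434682-9434741 for Gins3, chr9:120776087-120776146 for Tyms and chr13:105685932-105685991 for Dtl, again all on the minus strand.
Orc3: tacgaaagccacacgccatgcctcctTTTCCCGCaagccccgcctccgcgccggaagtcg
Gins3: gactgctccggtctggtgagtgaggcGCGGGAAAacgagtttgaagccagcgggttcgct
Tyms: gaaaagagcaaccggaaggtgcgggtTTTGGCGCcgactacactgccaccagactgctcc
Dtl: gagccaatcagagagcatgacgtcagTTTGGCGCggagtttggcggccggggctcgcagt
The match lay 10, 135, 52 and 20 bases before the start in Mcm2, Mcm6, Mcm7 and Ung, and 95, 36, 37 and 44 bases before it in Orc3, Gins3, Tyms and Dtl, counted from the first base of the match nearest the start. In Mcm2 and Mcm6 the capitals hold 2 overlapping matches. The same motif, TTTGGCGC, was present in Dtl and Tyms, which rose, and in the capitals of Mcm6, which fell.

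Origin licensing genes were mostly higher, with 5 of 9 higher (55.6%), 1 lower (11.1%) and 3 not past the test. Their median log2 fold change was 0.20. Among all genes tested, 24.4% were higher and 24.8% lower. The summed level of Orc1 to Orc6, the 6 subunits of the origin recognition complex that marks origins, was 147 and 138 CPM in siScramble replicates 2 and 3 and 170.1 and 176 CPM in siTbk1 replicates 2 and 3. Orc3 was at 21.7 and 23.00 CPM in siScramble and 30.5 and 30.9 CPM in siTbk1 libraries (log2 fold change 0.46, SE 0.0698). Orc2 stood at 27.6 and 26.3 CPM in siScramble and 34.8 and 38.02 CPM in siTbk1 libraries (log2 fold change 0.43, SE 0.0710). Both siTbk1 libraries lay above both siScramble libraries for these subunits, as they did for the next 2 and for 38.7% of all genes tested. For Orc4 the levels were 13.4 and 12.3 CPM in siScramble and 16.6 and 16.7 CPM in siTbk1 libraries (log2 fold change 0.38, SE 0.0851), and for Orc6 they were 43.4 and 40.1 CPM in siScramble and 48.8 and 47.3 CPM in siTbk1 libraries (log2 fold change 0.20, SE 0.0646). Orc5 (log2 fold change 0.12) did not pass. Orc1, the subunit whose protein is known to vary with the cell cycle, was at 10.7 and 9.24 CPM in siScramble and 9.25 and 10.9 CPM in siTbk1 libraries (log2 fold change 0.0059, SE 0.114), the groups overlapped, and its sign turned under scaling by library size alone. The adjusted p-values of the 4 subunits that rose were 0.000213 to 0.0207 (edgeR's quasi-likelihood test, Benjamini-Hochberg adjustment).

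The loaders and their inhibitor did not share a direction. Cdt1, which brings the Mcm2 to Mcm7 ring to origins, had 19.7 and 21.1 CPM in siScramble and 14.1 and 11.9 CPM in siTbk1 libraries (log2 fold change −0.65, SE 0.0941), a level 0.639 times that of the control. Gmnn, which encodes geminin, the protein that binds and blocks Cdt1, had 43.4 and 38.2 CPM in siScramble and 50.8 and 56.2 CPM in siTbk1 libraries (log2 fold change 0.39, SE 0.0759). Neither gene overlapped between groups, and the adjusted p-values were 0.000163 for Cdt1 and 0.00121 for Gmnn (edgeR's quasi-likelihood test, Benjamini-Hochberg adjustment). Cdc6, the ATPase that works with Cdt1 in loading, was at 25.2 and 24.6 CPM in siScramble and 24.9 and 25.1 CPM in siTbk1 libraries (log2 fold change 0.0088, SE 0.0689), and the groups overlapped. The quotient of Gmnn to Cdt1 CPM within a library, chosen after the values were seen and not tested, was 2.21 and 1.81 in siScramble and 3.62 and 4.74 in siTbk1 libraries. Cdt1 fell short of the 1.5-fold limit without siTbk1 replicate 3 (log2 fold change −0.54) and with the gene span correction (−0.55).

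The helicase subgroup was split between its parts, with 3 of 12 genes higher (25%), 5 lower (41.7%) and 4 not past the test. Its median log2 fold change was −0.092. The share higher was near that of all genes tested, of which 24.4% were higher and 24.8% lower. The ring genes Mcm2 to Mcm7 together summed to 1304 and 1293 CPM in siScramble and 1198 and 1162 CPM in siTbk1 libraries, and 5 of the 6 fell. Mcm2 was at 162 and 169 CPM in siScramble and 135 and 122 CPM in siTbk1 libraries (log2 fold change −0.36, SE 0.0599). Mcm5 was at 178 and 183 CPM in siScramble and 157 and 152 CPM in siTbk1 libraries (log2 fold change −0.22, SE 0.0518). In both genes each siTbk1 library lay below each siScramble library, and the same held for the other 3 ring genes that fell and for 37.9% of all genes tested. Mcm3 went from 149.7 and 144 CPM to 132 and 124 CPM (log2 fold change −0.20, SE 0.0553), Mcm6 from 318 and 309.6 CPM to 290.5 and 281 CPM (log2 fold change −0.14, SE 0.0509) and Mcm7 from 262 and 257 CPM to 241 and 234 CPM (log2 fold change −0.13, SE 0.0506). Mcm4 was the exception, at 234 and 230.2 CPM in siScramble and 243 and 248 CPM in siTbk1 libraries (log2 fold change 0.084, SE 0.0501), and did not pass. The 5 adjusted p-values were 0.000374 to 0.0498 (edgeR's quasi-likelihood test, Benjamini-Hochberg adjustment). Of the ring genes 3 were lower without siScramble replicate 2 and 3 without siScramble replicate 3, 2 without siTbk1 replicate 3, and 3 with the gene span correction.

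The partners that turn the ring into the CMG helicase moved the other way or not past the test. Cdc45 was at 20.5 and 20.8 CPM in siScramble and 25.9 and 25.2 CPM in siTbk1 libraries (log2 fold change 0.31, SE 0.0708). Gins3 was at 29.5 and 26.8 CPM in siScramble and 33.4 and 36.1 CPM in siTbk1 libraries (log2 fold change 0.30, SE 0.0737), and Gins4 at 25.7 and 24.1 CPM in siScramble and 27.6 and 31.98 CPM in siTbk1 libraries (log2 fold change 0.25, SE 0.0823). These 3 genes rose, with adjusted p-values of 0.00323 to 0.0226 (edgeR's quasi-likelihood test, Benjamini-Hochberg adjustment). Their siTbk1 libraries lay above their siScramble libraries, as for 38.7% of all genes tested. The other 2 GINS subunits did not pass, Gins1 at 21.2 and 22.04 CPM in siScramble and 20.2 and 21.5 CPM in siTbk1 libraries (log2 fold change −0.054, SE 0.0752) and Gins2 with a log2 fold change of −0.13 (SE 0.107), and both overlapped between groups. Mcm10, a factor of helicase activation, did not pass either (log2 fold change 0.12, SE 0.0655).

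**Figure D3:**
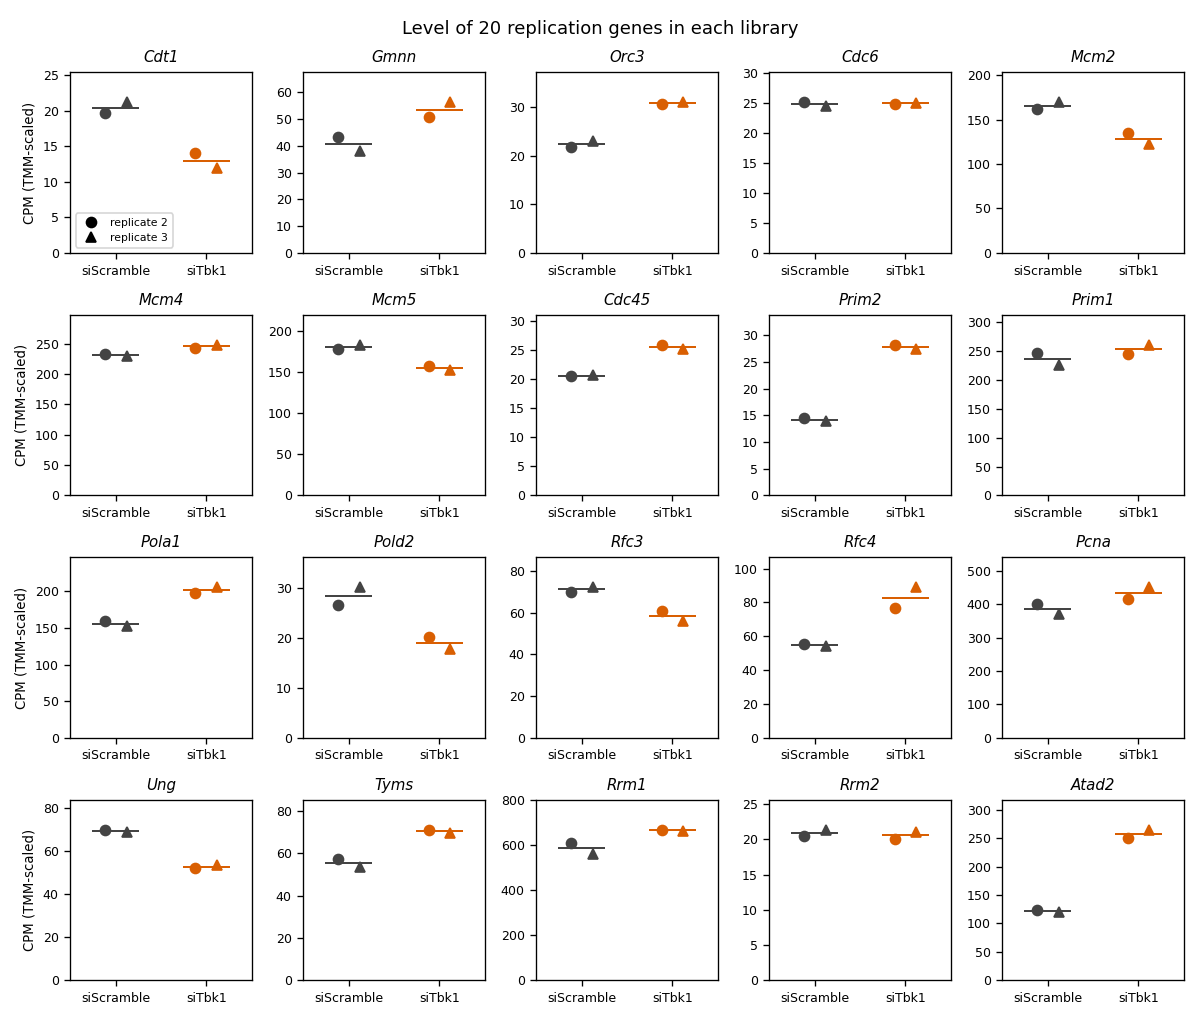
Level (TMM-scaled CPM, each axis from 0) of 20 replication genes in the 4 libraries, with circles for replicate 2, triangles for replicate 3 and a line at the mean of each group. The groups stand apart for Cdt1, Gmnn, Mcm2, Prim2, Ung, Tyms and Atad2, and they overlap for Cdc6, Prim1 and Rrm2.

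Polymerase and primase genes had log2 fold changes from −0.58 to 0.97, the widest range of the 7 subgroups, with a median of 0.099. In this subgroup 2 of 9 were higher (22.2%), 2 lower (22.2%) and 5 not past the test. These shares were near the 24.4% higher and 24.8% lower of all genes tested. Prim2, the large subunit of primase, was at 14.4 and 14.01 CPM in siScramble and 28.2 and 27.5 CPM in siTbk1 libraries (log2 fold change 0.97, SE 0.0740), 1.96 times the control. Prim1, the catalytic subunit of the same enzyme, was at 247 and 225 CPM in siScramble and 245 and 261 CPM in siTbk1 libraries (log2 fold change 0.099, SE 0.0594), with overlapping groups. The Prim2 to Prim1 quotient within a library, chosen after the values were seen and not tested, was 0.0584 and 0.0622 in siScramble and 0.115 and 0.105 in siTbk1 libraries. Pola1, the catalytic subunit of polymerase α that extends the primer, rose from 159.8 and 152 CPM to 198 and 205 CPM (log2 fold change 0.37, SE 0.0536), while its partner Pola2 (log2 fold change −0.077) did not pass. The counts of Pola1 are not whole numbers, those of Prim2 are so to within 0.02, and Pola2 overlaps Cdc42ep2 on the same strand.

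The polymerase δ genes moved down where they moved. Pold2, its accessory subunit, was at 26.6 and 30.2 CPM in siScramble and 20.2 and 17.8 CPM in siTbk1 libraries (log2 fold change −0.58, SE 0.0876), a level 0.670 times the control that stopped just short of the 1.5-fold limit. Pold1, the catalytic subunit, was at 14.3 and 17.1 CPM in siScramble and 11.9 and 10.6 CPM in siTbk1 libraries (log2 fold change −0.47, SE 0.105). Groups did not overlap for either gene, and replicate 3 held the highest siScramble and the lowest siTbk1 level of both. Pold3 (log2 fold change 0.11) did not pass. Of polymerase ε, the leading strand enzyme, Pole was at 118 and 119 CPM in siScramble and 113 and 116 CPM in siTbk1 libraries (log2 fold change −0.048, SE 0.0528), and Pole2 had a log2 fold change of 0.30 (SE 0.116) at the edge of the threshold (adjusted p = 0.0505, edgeR's quasi-likelihood test, Benjamini-Hochberg adjustment). By the same test the adjusted p-values were 2.42e-06 for Prim2, 0.000155 for Pola1, 0.000216 for Pold2 and 0.00282 for Pold1. Pold2 passed the 1.5-fold limit without siScramble replicate 2 (−0.67), without siTbk1 replicate 2 (−0.69) and under library size alone (−0.62), and Pold1 passed it without siScramble replicate 2 (−0.60).

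Of the clamp gene Pcna and the loader genes Rfc2 to Rfc5, 2 rose (40%), 1 fell (20%) and 2 did not pass. Their median log2 fold change was 0.107, and 24.4% of all genes tested were higher and 24.8% lower. Rfc1, another loader subunit, is counted with the other replication factors below. It rose (log2 fold change 0.52, SE 0.0594) and was named after its values were seen. Rfc4 was at 55.7 and 54.3 CPM in siScramble and 76.9 and 88.9 CPM in siTbk1 libraries (log2 fold change 0.59, SE 0.0714). Rfc3, another small subunit of the same loader, was at 70.1 and 72.2 CPM in siScramble and 60.9 and 55.9 CPM in siTbk1 libraries (log2 fold change −0.28, SE 0.0625). The siTbk1 libraries stood above the siScramble libraries for Rfc4 and below them for Rfc3, and the quotient of Rfc4 to Rfc3, chosen after the values were seen and not tested, was 0.794 and 0.752 in siScramble and 1.26 and 1.59 in siTbk1 libraries. Pcna, the sliding clamp that holds polymerases on DNA, rose from 401 and 372 CPM to 415 and 451 CPM (log2 fold change 0.16, SE 0.0590). Rfc5 was at 126 and 119.6 CPM in siScramble and 133 and 132 CPM in siTbk1 libraries (log2 fold change 0.11, SE 0.0540) and Rfc2 had a log2 fold change of −0.13, neither past the test. The adjusted p-values were 5.17e-05 for Rfc4, 0.00254 for Rfc3 and 0.035 for Pcna (edgeR's quasi-likelihood test, Benjamini-Hochberg adjustment). The fold of Rfc4, 1.505, was only just past the 1.5-fold limit, and its counts are not whole numbers. Without siScramble replicate 3 or siTbk1 replicate 3 Rfc4 fell short of that limit (log2 fold change 0.57 and 0.48). With all libraries kept, it also fell short under DESeq2 (0.5839), library size alone (0.5421) and limma-voom (0.5836). The same held without the filter (0.5814) and with the count minimum (0.5835). Rfc4 stayed past the limit with the replicate block (0.5867), upper quartile scaling (0.594) and the span correction without and with the block (0.6404 and 0.6366).

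Single-strand binding genes rose where they moved and the enzymes that finish Okazaki fragments fell. In all, 2 of the 5 tested were higher (40%), 2 lower (40%) and 1 not past. Among all genes tested, 24.4% were higher and 24.8% lower. Rpa3, the smallest subunit of the trimer that coats exposed single strands, was at 41.5 and 37.4 CPM in siScramble and 51.1 and 54.5 CPM in siTbk1 libraries (log2 fold change 0.42, SE 0.0694). Rpa1, its largest subunit, was at 110.2 and 104 CPM in siScramble and 127 and 122 CPM in siTbk1 libraries (log2 fold change 0.22, SE 0.0559). Rpa2, the middle subunit, was at 65.9 and 66.2 CPM in siScramble and 67.9 and 69.2 CPM in siTbk1 libraries (log2 fold change 0.054, SE 0.0565) and did not pass, although its groups did not overlap. Fen1, the flap endonuclease, fell from 181 and 181 CPM to 158 and 157 CPM (log2 fold change −0.20, SE 0.0506), and Lig1, the ligase that closes the nick, fell from 141 and 143 CPM to 124 and 126 CPM (log2 fold change −0.18, SE 0.0517). Adjusted p-values ran from 0.000388 for Rpa3 to 0.0127 for Lig1 (edgeR's quasi-likelihood test, Benjamini-Hochberg adjustment). Counts of Rpa1, Rpa3 and Lig1 are not whole numbers, and with the gene span correction Rpa1 and Fen1 did not pass.

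The genes of nucleotide supply and uracil removal were evenly divided, 2 higher (33.3%), 2 lower (33.3%) and 2 not past the test. Of the 2 lower, Tk1 acts in nucleotide supply and Ung in uracil removal. The median log2 fold change of the subgroup was 0.00013. The shares among all genes tested were 24.4% higher and 24.8% lower. Tyms, which makes thymidylate from deoxyuridylate, was at 57.3 and 53.7 CPM in siScramble and 71.2 and 69.7 CPM in siTbk1 libraries (log2 fold change 0.34, SE 0.0601). Tk1, which salvages thymidine to the same product, was at 207 and 215 CPM in siScramble and 189 and 186 CPM in siTbk1 libraries (log2 fold change −0.17, SE 0.0515). The groups did not overlap for either enzyme of thymidylate supply, and one rose while the other fell. Rrm1, the large subunit of ribonucleotide reductase, rose from 609 and 562 CPM to 669 and 662 CPM (log2 fold change 0.18, SE 0.0546). Rrm2, its small subunit whose abundance is known to limit the enzyme in S phase, was at 20.5 and 21.4 CPM in siScramble and 20.05 and 21.1 CPM in siTbk1 libraries (log2 fold change −0.025, SE 0.0749), and the groups overlapped. The 95% interval of the Rrm2 change reached from −0.19 to 0.14 on the log2 scale. Ung, the glycosylase that removes uracil from DNA, fell from 69.8 and 68.7 CPM to 52.02 and 53.2 CPM (log2 fold change −0.40, SE 0.0577), while Dut, which clears dUTP before it is incorporated, was at 89.6 and 84.4 CPM in siScramble and 85.9 and 91.3 CPM in siTbk1 libraries (log2 fold change 0.025, SE 0.0598) with overlapping groups. Adjusted p-values were 0.000163 for Ung, 0.000559 for Tyms, 0.0141 for Rrm1 and 0.0168 for Tk1 (edgeR's quasi-likelihood test, Benjamini-Hochberg adjustment). Counts of Rrm1, Rrm2 and Dut are not whole numbers, and Tk1 did not pass with the gene span correction.

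Of the chromatin and ubiquitin genes that act behind the fork, 3 of 6 rose (50%), 2 fell (33.3%) and 1 did not pass. Among all genes tested, 24.4% were higher and 24.8% lower. Atad2, a bromodomain ATPase that binds newly made chromatin, was at 124 and 120.1 CPM in siScramble and 251 and 265 CPM in siTbk1 libraries (log2 fold change 1.08, SE 0.0543), 2.11 times the control and the largest change of any member. Its level was similar between replicates of a group, and its counts are whole numbers, although its span overlaps Wdyhv1 on the opposite strand. Cdca7, a partner of the remodeller Hells, was at 18.6 and 17.2 CPM in siScramble and 21.3 and 20.3 CPM in siTbk1 libraries (log2 fold change 0.22, SE 0.0788). Dtl, the adaptor through which a Cul4 ubiquitin ligase destroys Cdt1 protein in S phase, was at 67.04 and 62.8 CPM in siScramble and 75.5 and 73.8 CPM in siTbk1 libraries (log2 fold change 0.20, SE 0.0594). The siTbk1 libraries lay above the siScramble libraries for all 3 of these genes, and below them for Chaf1b, Chaf1a and Uhrf1. They lay above for 38.7% and below for 37.9% of all genes tested. Chaf1b and Chaf1a, subunits of the chromatin assembly factor that deposits histones at the fork, fell from 26.03 and 26.8 CPM to 23.7 and 21.99 CPM (log2 fold change −0.21, SE 0.0725) and from 64.4 and 62.5 CPM to 58.5 and 54.8 CPM (log2 fold change −0.16, SE 0.0608). Uhrf1, which brings the maintenance methyltransferase to replicated DNA, was at 85.1 and 86.01 CPM in siScramble and 81.3 and 76.9 CPM in siTbk1 libraries (log2 fold change −0.11, SE 0.0571) and did not pass. Adjusted p-values were 2.1e-07 for Atad2 and 0.0145 to 0.0408 for the other 4 that passed (edgeR's quasi-likelihood test, Benjamini-Hochberg adjustment).

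The listed genomic span of the genes, from start to stop on the rn6 build, moved with the changes. Its median was 24.4 kb for the 19 members that rose, 14.4 kb for the 15 that fell and 17.7 kb for those that did not pass, against 20.1 kb for all genes tested. Across the 52 members the log2 fold change and the span had a Spearman correlation of 0.261, beside 0.214 across all genes tested, as a description over genes that share the same 4 libraries. Pola1 (316 kb) and Prim2 (208 kb), the longest members, both rose. Cdt1 (4.95 kb) and Pold2 (6.29 kb), both short, fell, whereas the equally short Rpa3 (3.03 kb) and Pcna (3.87 kb) rose. With each library's trend along span removed, 18 members were higher and 11 lower, and Mcm6, Mcm7, Rpa1, Fen1, Tk1 and Dtl did not pass. Prim2 was then at a log2 fold change of 0.85 and Atad2 at 1.02.

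**Figure D4:**
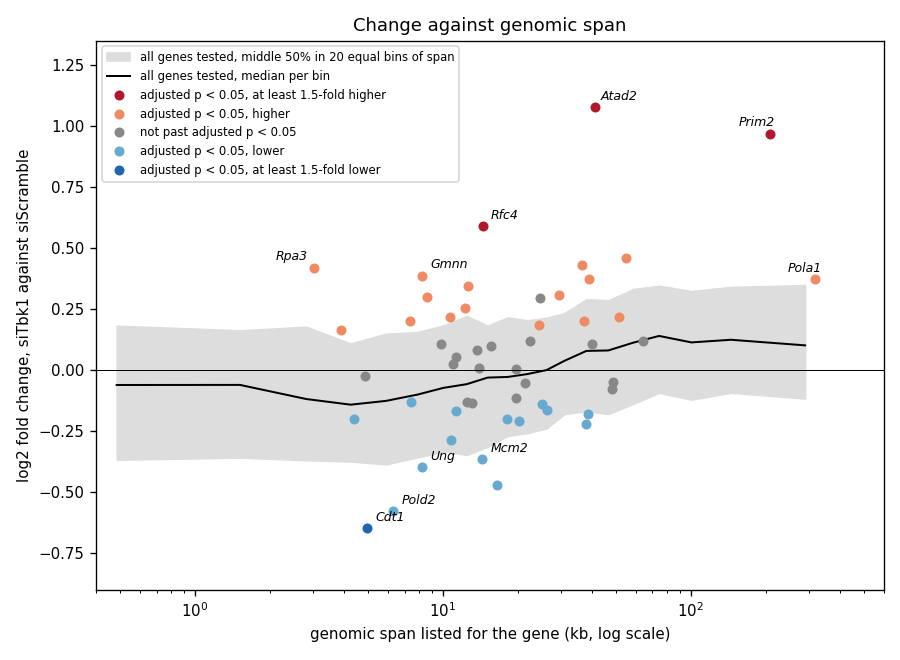
Log2 fold change (siTbk1 against siScramble) against the listed genomic span (kb, log scale) for the 52 replication genes, coloured by the test, over the median (black line) and the middle 50% (grey band) of all genes tested in 20 bins of equal size. The line rises from short to long spans. Atad2, Prim2, Rfc4, Rpa3 and Gmnn are among those above the band, and Cdt1, Pold2, Pold1, Mcm2 and Ung are among those below it.

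Related genes outside the 53, listed by role, were counted by the same test for comparison. Of 31 other replication factors 15 rose (48.4%), 3 fell (9.68%) and 13 did not pass, with a median log2 fold change of 0.143. Among all genes tested, 24.4% were higher and 24.8% lower. Tipin, a fork protection factor, was called higher at 2.52 and 2.83 CPM in siScramble and 3.66 and 4.85 CPM in siTbk1 libraries (log2 fold change 0.66, SE 0.172), with counts that are not whole. Rnaseh2c, a subunit of the RNase that removes ribonucleotides from DNA, was called lower at 8.35 and 9.92 CPM in siScramble and 6.04 and 5.46 CPM in siTbk1 libraries (log2 fold change −0.66, SE 0.122). Of 34 other nucleotide synthesis genes 9 rose (26.5%), 8 fell (23.5%) and 17 did not pass, near the shares of all genes tested. Prps2, which makes the ribose phosphate donor of nucleotide synthesis, was called higher at 54.6 and 51.98 CPM in siScramble and 105 and 116 CPM in siTbk1 libraries (log2 fold change 1.05, SE 0.0650), and so was Cmpk1, a pyrimidine monophosphate kinase, at 246 and 213 CPM in siScramble and 341 and 349.7 CPM in siTbk1 libraries (log2 fold change 0.59, SE 0.0658), both with counts that are not whole. Of 17 other chromatin and ubiquitin genes of replication 10 rose (58.8%), 1 fell (5.88%) and 6 did not pass. The 8 genes of uracil and base excision repair were near the shares of all genes tested. Of these, 2 rose (25%), 2 fell (25%) and 4 did not pass. None was past the 1.5-fold limit in either list.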

How the data were processed

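Poly(A) RNA libraries of 4 samples were sequenced by the authors, 2 siScramble and 2 siTbk1. The deposited table holds, per gene and sample, estimated counts that the authors did not scale, of which 21.1% to 22.3% per library are not whole (tolerance 0.01) as estimates that share reads among genes can be. The submitters' processing notes name STAR 2.6.1d, Partek and the rn6 build, and the use of strand in counting is not given in the sources used here. All 4 value columns match a sample's label, and 0 others were present. Estimated counts were rounded, and genes were kept by filterByExpr of edgeR 4.0.16 (R 4.3.3) at a minimum count of 10, which removed 1219. Groups were compared by edgeR's quasi-likelihood test with TMM factors (0.982 to 1.02), without a replicate term, at a Benjamini-Hochberg adjusted p under 0.05, alone or with a fold of at least 1.5. The estimated biological coefficient of variation was 0.0482, and 3 counts corresponded to 0.0628 to 0.0781 CPM, a limit that covers counting error only. The test was checked on simulated data with the 1.5-fold limit applied, so calls by adjusted p alone were not checked in this way. Intervals are at 95%.

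The members, the other gene lists and the tests were chosen with earlier results of these data known. All members were to be named, with per-library values for those past the threshold, for the member of each subgroup nearest to 0 and for defining members (Cdc6, Cdt1, Gmnn, Pcna, Rrm1, Rrm2, Tyms), and genes of other lists only past the 1.5-fold limit. The spans of 3 members overlap another listed gene (Pola2, Fen1 and Atad2), leaving aside listed spans above 5 Mb. Alternatives were a replicate block, DESeq2 1.42.0, upper quartile and library size scaling, limma-voom (limma 3.58.1), no filter, 10 or more counts in each of the samples, glmTreat, a loess correction (span 0.5) along log10 genomic span with and without the block, and leaving out each sample. Promoters were read from RefSeq (GRCr8), a different build from that of the table. Python 3.11.15 and matplotlib 3.10.9 drew the figures.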

Additional observations from a re-analysis of the deposited data

How the results depend on the processing

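All 34 members past the threshold kept their direction in the 9 alternatives that used all 4 libraries, and 19 stayed past it in every one. Members higher numbered 15 to 20 over these alternatives (19 as reported), and 13 to 19 with 1 library left out. Members lower (15) numbered 9 with the replicate block, 8 with the gene span correction and block, and 9 to 13 with 1 library left out. With the fold limit, 3 members called higher became 2 under DESeq2, library size alone, limma-voom, no filter, the count minimum and glmTreat, and 2 to 3 with 1 library left out. The 1 member called lower became 2 under library size alone and 0 under glmTreat, the span correction and the span correction with block, and 0 to 3 with 1 library left out. Of all genes, those called higher (671) and lower (862) became 163 and 101 under glmTreat, which tests against the fold limit, and 552 to 756 and 574 to 1159 with 1 library left out. Other all-gene counts with 1 library left out were 2501 to 3261 higher and 2598 to 3356 lower by adjusted p alone. Lower genes among Mcm2 to Mcm7 (5) numbered 3 with the block, 3 with the span correction and 2 with both. The member no longer called higher with the fold limit under DESeq2, library size alone, limma-voom, no filter and the count minimum was Rfc4.

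Library size alone moved the median of all genes to −0.040 and that of the members from 0.069 to 0.021, of the helicase genes to −0.14, of the polymerases to 0.052, of the clamp genes to 0.060, of the single-strand binding and Okazaki genes to 0.0067, of the nucleotide genes to −0.047 and of the chromatin genes to −0.0035. The span correction, without and with the block, gave 0.2953 and 0.2968 for origin licensing, −0.03894 and −0.0389 for the helicase genes, 0.05146 and 0.05144 for the polymerases, 0.1858 and 0.1866 for the clamp genes, 0.1234 in both for the single-strand binding and Okazaki genes, and 0.08641 and 0.08647 for the nucleotide genes. With 1 library left out the medians ranged from 0.042 to 0.10 for all members, 0.15 to 0.26 for licensing, −0.090 to −0.058 for the helicase, 0.033 to 0.11 for the polymerases, 0.068 to 0.15 for the clamp, 0.041 to 0.057 for single-strand binding, −0.040 to 0.029 for nucleotide supply and 0.0014 to 0.072 for chromatin. Signs turned only for genes near 0. Orc1 was at −0.041 under library size alone, −0.0042 under limma-voom, −0.0022 without the filter and −0.11 to 0.12 with 1 library left out. Cdc6 was at −0.039 under library size alone and −0.0085 to 0.027 with 1 left out, Dut at −0.022 and −0.018 to 0.070, and Rrm2 at 0.077 with the span correction, 0.077 with its block and −0.061 to 0.0047 with 1 left out. The cause of these shifts was not tested.

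Samples with the same replicate number deviated from the mean of their group with a correlation (Pearson) of 0.0041 over 13953 genes, and of −0.39 over 7945 genes whose mean reached 4 log2 CPM, and the labels give no shared batch, so the numbers were not taken to pair the samples. With the replicate block 8 of the 34 members no longer passed, all of them within 0.22 of 0. With 2 samples a group, a fit without 1 library assumes that the lone sample varies like the other group.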

Other observations

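Genes that govern entry into S phase lie outside the replication genes described above, and 19 of the 20 listed were tested. E2f1 is not analysed here. Of the 19 tested, 11 rose (57.9%), 3 fell (15.8%) and 5 did not pass (edgeR's quasi-likelihood test, adjusted p under 0.05). Their median log2 fold change was 0.24. Among all genes tested, 24.4% were higher and 24.8% lower. Ccne2, a cyclin that activates Cdk2 at the start of S phase, was at 52.7 and 44.4 CPM in siScramble and 114 and 122 CPM in siTbk1 libraries (log2 fold change 1.28, SE 0.0773). The related Ccne1 did not pass (log2 fold change −0.11, SE 0.0616). Pocket proteins that hold E2F factors in check, the retinoblastoma gene Rb1 and its relative Rbl1, also rose past the 1.5-fold limit. Rb1 was at 20.5 and 18.9 CPM in siScramble and 35.4 and 36.7 CPM in siTbk1 libraries (log2 fold change 0.87, SE 0.0719), and Rbl1 at 19.6 and 18.6 CPM in siScramble and 28.7 and 30.2 CPM in siTbk1 libraries (log2 fold change 0.62, SE 0.0727). The siTbk1 libraries lay above the siScramble libraries for Ccne2, Rb1 and Rbl1, as for 38.7% of all genes tested. Among the E2F factors, E2f2 (0.24), E2f3 (0.28) and E2f6 (0.38) rose, E2f4 (−0.16) and E2f8 (−0.35) fell, and E2f5 (0.043) and E2f7 (0.14) did not pass, all as log2 fold changes and named after their values were seen.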
